A study of Mus musculus with 14 samples.

Results

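The cytosolic ribosomal protein genes were taken as all genes whose array symbol starts with Rpl or Rps followed by a number, or is Rplp0, Rplp1, Rplp2 or Rpsa, without the Rps6k kinases and pseudogene names. Only probe sets listed with a single symbol were used, and where a gene had several, the brightest on average stood for it. The rule gave 50 of the 18194 genes measured: 21 proteins of the small subunit, 22 of the large subunit, 6 ribosomal protein-like paralogs (Rpl3l, Rpl7l1, Rpl22l1, Rpl39l, Rps27l and Rps4l) and Rps19bp1, a protein that binds Rps19 and matched the rule by its letters. Another 31 symbols of the rule, among them Rpl3, Rpl5, Rpl10, Rplp1 and Rps12, were listed only together with other symbols, mostly pseudogenes and predicted copies, and have no value of their own here.

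The study profiled mouse primordial germ cells, from which eggs and sperm later form, on 14 Affymetrix expression arrays with 2 biological replicates a group. There were 7 groups: embryonic days E9.5, E10.5 and E11.5 without separation by sex, and each sex at E12.5 and at E13.5. From E10.5 onward the embryos came from BDF1 mothers and transgenic fathers of a mixed B6/CBA background, and the cells were sorted on the fluorescence of a stella-EGFP reporter after trypsin treatment of the genital ridges. Both replicate 1 arrays of E12.5 have no strain label. The E9.5 cells were C57BL/6, came from an earlier study, and have no sort or reporter described in the sources used here. Every sample used 5 ng of RNA, stated as equivalent to 500 cells, amplified by 12 PCR cycles (22 at E9.5), and the number of embryos behind a sample is not stated there.

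The cytosolic ribosome is built from a small and a large subunit, each a scaffold of ribosomal RNA with many proteins, most of which are needed in equal copy number. The small subunit reads the mRNA and the large subunit joins amino acids and carries the stalk of P proteins that recruits elongation factors. Ribosomal protein mRNAs are among the most abundant in growing cells, start with a short run of pyrimidines through which mTOR signalling and Larp1 control their translation, and have compact promoters without a strict TATA box. Germ cells proliferate over most of the ages studied, and toward their end female germ cells begin to enter meiosis and male germ cells begin to stop dividing.

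Promoters are shown for the members between which the results differ most. Rpl38 and Rpl37, proteins of the large subunit, had among the widest differences between replicate arrays. Rplp0 (the base of the P stalk), Rps3a1 (small subunit) and Rpl4 (large subunit) were among the steadiest. Rpl39 and Rpl39l are paralogs, and neither passed in any comparison. Rpl39l had its lowest group mean at E9.5, where strain, study and PCR cycles also differ, and Rpl39 at E10.5. The stretches run from 60 bases before to 20 bases from the annotated start, 5′ to 3′ on the strand of the gene, from RefSeq on GRCm38.p6. Capitals mark the letters GGGCGG (a GC box), CCGGAAG (the core of ETS factor sites) and CTTTCC (a pyrimidine run), on either strand; the letters TATAAA and AAGATGGC were also searched and do not occur in these stretches.
Rpl38 (chr11:114668520-114668599, plus strand): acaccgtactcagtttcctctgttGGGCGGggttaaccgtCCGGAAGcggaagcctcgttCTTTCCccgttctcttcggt
Rpl37 (chr15:5116553-5116632, plus strand): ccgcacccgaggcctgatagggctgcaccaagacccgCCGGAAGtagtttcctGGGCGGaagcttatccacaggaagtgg
Rplp0 (chr5:115559407-115559486, plus strand): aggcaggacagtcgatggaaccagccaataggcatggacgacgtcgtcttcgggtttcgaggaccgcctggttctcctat
Rps3a1 (chr3:86142649-86142728, minus strand): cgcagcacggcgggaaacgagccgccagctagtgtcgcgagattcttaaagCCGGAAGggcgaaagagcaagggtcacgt
Rpl4 (chr9:64173327-64173406, plus strand): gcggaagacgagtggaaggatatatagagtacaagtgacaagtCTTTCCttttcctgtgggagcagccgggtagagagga
Rpl39 (chrX:37085203-37085282, minus strand): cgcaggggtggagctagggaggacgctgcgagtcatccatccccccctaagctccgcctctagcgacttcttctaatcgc
Rpl39l (chr16:10170168-10170247, plus strand): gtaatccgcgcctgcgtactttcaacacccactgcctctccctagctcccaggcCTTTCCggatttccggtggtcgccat

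Over whole windows of 300 bases, from 250 before to 50 from the start, promoters were matched for 44 of the 50 members and compared with 27025 genes, counting both strands. CCGGAAG was in the promoters of 21 members (47.7%, against 9.9% of all genes), GGGCGG in 26 (59.1% against 38.2%) and CTTTCC in 23 (52.3% against 29.3%). TATAAA was in 6 (13.6% against 15.7%) and AAGATGGC, the core of the YY1 motif, in 4 (9.1% against 3.2%). None of these strings contains another. They were given as matches of letters only, with no test.

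The members gave some of the strongest signals on the arrays. Of the 43 members that are proteins of the canonical ribosome, 35 had a mean log2 signal above 12 and 32 above 13, levels that 497 and 113 of all genes exceeded. The highest value in the table, 14.04, belonged to Rpl4 in E13.5 male replicate 1, and 23 members, out of 32 genes in all, had a mean within 0.5 of it. At that end of the scale a true change may be compressed, and this was not tested. Signals of different probe sets are not set against each other as amounts of RNA, because probes bind with different strength.

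The other 8 canonical members had a mean of 12 or less on the probe set used, and for all of them but Rps15 a probe set shared with other symbols had a mean above 12. The single-symbol probe set of Rps16 averaged 2.37, below the median of the table (4.72; lower signals are called dim), whereas its shared probe sets averaged 13.81 and 13.64. The own probe set of Rps27 averaged 6.85 and the shared one 12.41. For Rps25 the means were 8.52 and 13.17. The remaining members in this range were Rpl12 (10.19), Rpl14 (10.14), Rpl27a (9.85), Rps15 (10.29) and Rps6 (10.23). Rps15 has no shared probe set, and its other probe set averaged 9.69. For these 8 genes the values below describe the single-symbol probe set only.

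The steadiest members held their level across all 6 groups from E10.5 to E13.5. Group means of Rps3a1 spanned 0.03 on the log2 scale. Those of Rps4x (a small subunit protein encoded on the X chromosome) spanned 0.035, of Rpl4 0.04 and of Rplp0 0.045. Those of Rps2 (small subunit, near the entry of the mRNA channel) spanned 0.05. Rplp0 read 13.78 and 13.79 at E10.5, 13.76 and 13.77 at E11.5, 13.78 and 13.77 in E12.5 females, and 13.81 and 13.75 in E12.5 males. At E13.5 it read 13.84 and 13.64 in females and 13.84 and 13.72 in males. The group means lay within 0.045 of each other, and the replicates of either sex at E13.5 differed more than that. The difference of Rplp0 between E13.5 females and E10.5 was -0.04 (95% interval -0.31 to 0.22), so a change of up to that size is not shown to be absent. At E9.5 Rplp0 read lower, 13.40 and 13.69.

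Across all 50 members the median span of group means was 0.44, with 9 members under 0.1 and 5 over 1. Over all genes the median span was 0.94. For the 35 canonical members with a mean above 12 it was 0.26, and for the 459 other genes above 12 it was 0.40. These 2 sets differ in brightness: 32 of the 35 had a mean above 13, but only 113 of all 497 genes above 12 did. The part of compression at the upper end of the scale in these spans was not tested. The widest spans belonged to Rpl3l (2.28), Rpl39l (1.70), Rps6 (1.25), Rpl14 (1.10) and Rpl27a (1.10). In 38 members the lowest group was E10.5, a count that was not made over all genes. Without E10.5 replicate 2 the median span was 0.18, and E10.5 was lowest in 10 members.

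**Figure D1:**
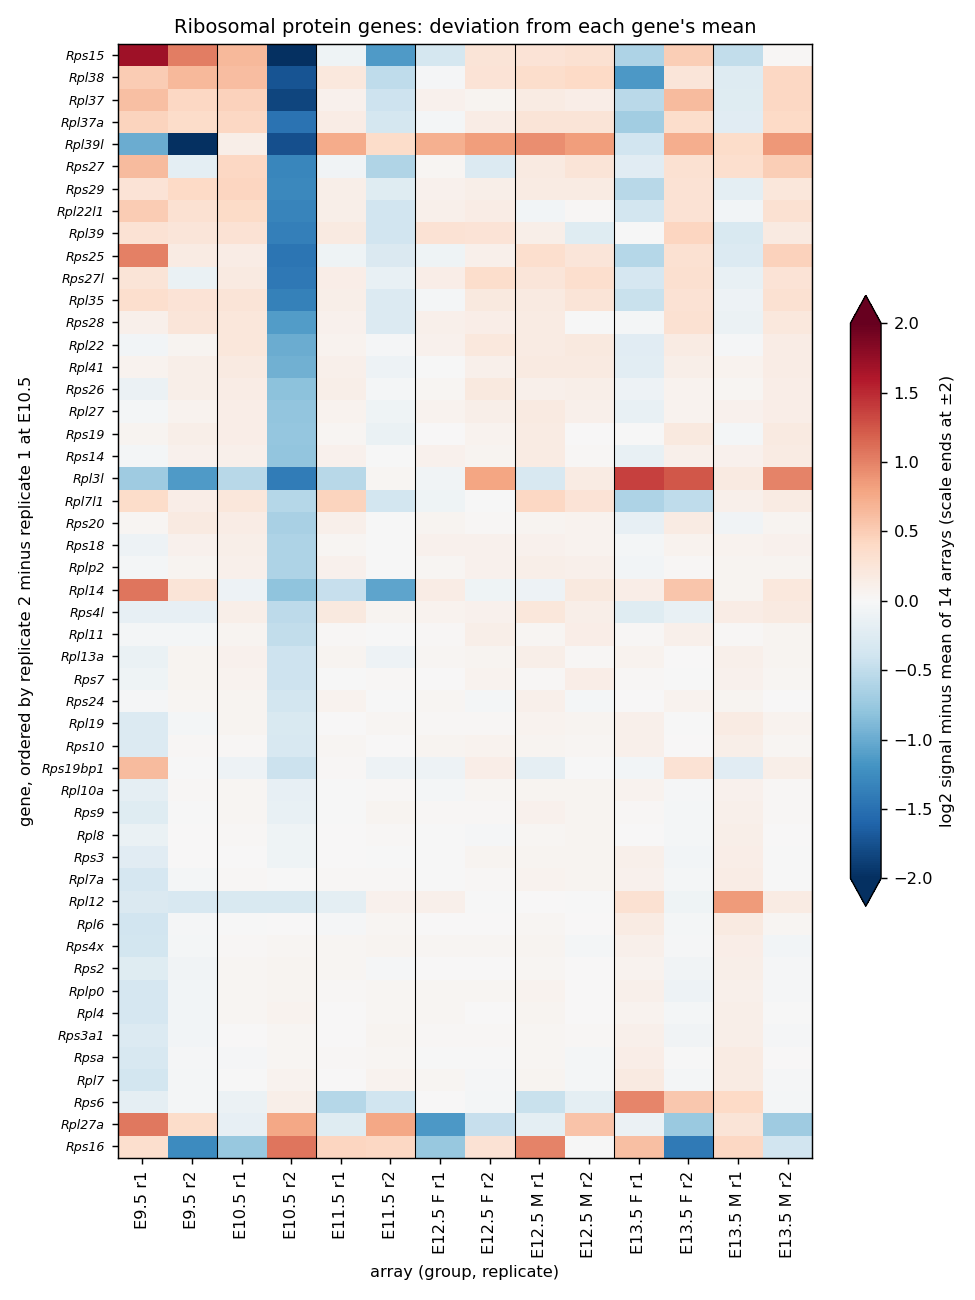
Log2 signal of the 50 members (rows) on the 14 arrays (columns, grouped by age and sex; F, female; M, male; r1 and r2, replicates), as the deviation from each gene's mean over the arrays. E10.5 replicate 2 is the darkest blue column: 30 members had their lowest value there, a count that was not made over all genes.

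E10.5 replicate 2 read most ribosomal protein genes low, while its own replicate did not. The median deviation of the members from their own mean was -0.55 on this array and between -0.05 and 0.09 on the 13 others, and 26 members lay over 0.5 below their mean there. The same count was not made over all genes, and the median gene also read lowest on this array (6.18). Between the E10.5 arrays, replicate 2 minus replicate 1 had a median of -0.68 over the members, against -0.07 over all genes and -0.06 over the other genes above 12. The difference was below -1 in 15 members (30.0%), in 12.72% of all genes and in 7.63% of the other genes above 12. These are differences between single arrays and have no test.

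The members split by how far they moved. Rpl38 showed the widest gap among the bright members, with 13.56 in replicate 1 and 11.22 in replicate 2 of E10.5. Its other arrays read 13.45 and 13.59 at E9.5, 13.16 and 12.43 at E11.5, 12.92 and 13.21 in E12.5 females, and 13.29 and 13.34 in E12.5 males. At E13.5 it read 11.79 and 13.18 in females and 12.69 and 13.35 in males. Low values thus occurred in E10.5 replicate 2 and E13.5 female replicate 1, each with a replicate at the level of the other groups. Rps29, a zinc-binding protein of the small subunit, read 13.93 and 12.22 at E10.5 and 12.96 and 13.80 in E13.5 females.

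The other members with a gap below -1 at E10.5 were Rps15 (-2.69), Rpl37 (-2.30), Rpl37a, Rpl39l, Rps27, Rpl22l1, Rpl39, Rps25, Rps27l, Rpl35, Rps28, Rpl22 and Rpl41 (-1.14); they are named here because of these values. Rpl4, Rpl6, Rpl7, Rpl7a, Rpl12, Rps2, Rps3a1, Rps4x, Rplp0 and Rpsa differed by less than 0.1 between the same arrays. Lengths of transcripts or proteins were not analysed here. Among the promoters, CCGGAAG was in 8 of the 14 matched for members below -1 and in 13 of the 30 others, CTTTCC in 7 and 16, GGGCGG in 6 and 20, and TATAAA in 4 and 2.

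Probe sets that the members' values do not use read the same array low. Among 33 further single-symbol probe sets of the members with a mean above 12, the median of replicate 2 minus replicate 1 at E10.5 was -0.78, and 15 were below -1. Among 84 bright probe sets that list a ribosomal protein symbol beside others it was -0.56, with 18 below -1. For 791 bright probe sets of other genes it was -0.08, with 73 (9.23%) below -1. Within a gene the gap was close for some members: it was -1.71, -1.71 and -2.19 on the 3 probe sets of Rps29, -1.34, -1.52 and -1.50 on those of Rps28, and 0.08, 0.05 and 0.05 on those of Rpl7. It varied more for others, with -0.93, -1.36 and -1.84 for Rpl27. Where a gene also has weaker probe sets, these could differ from the bright ones, with -0.10 and -1.20 on probe sets of Rps3 that averaged 13.58 and 9.71. For Rps20 it was -0.79 on both bright probe sets and 0.44 and 0.96 on those averaging 5.37 and 4.55.

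The same members separated the replicates at E11.5 and E13.5. Over the 50 members the replicate difference at E10.5 correlated with that of E13.5 females at r = -0.95, of E13.5 males at -0.88 and of E11.5 at 0.74. Over all 18194 genes these values were -0.19, -0.13 and 0.28, and over the genes brighter than the median gene -0.49, -0.42 and 0.69. With the other groups the members' correlation was weak: 0.16 with E9.5, 0.12 with E12.5 females and -0.13 with E12.5 males. These correlations are descriptions across genes that share arrays, probes and normalization, not tests. For the 15 members below -1 at E10.5, the lower arrays were E10.5 replicate 2, E11.5 replicate 2 and both replicate 1 arrays of E13.5. Members with little gap at E10.5, such as Rpl4, Rpl7 and Rpsa, read higher in both replicate 1 arrays of E13.5. Over all 50 members the median deviation was -0.01 in E13.5 female replicate 1 and 0.09 in E13.5 male replicate 1. At E12.5 the replicates lay close, with a median absolute difference of 0.05 in females and 0.07 in males.

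**Figure D2:**
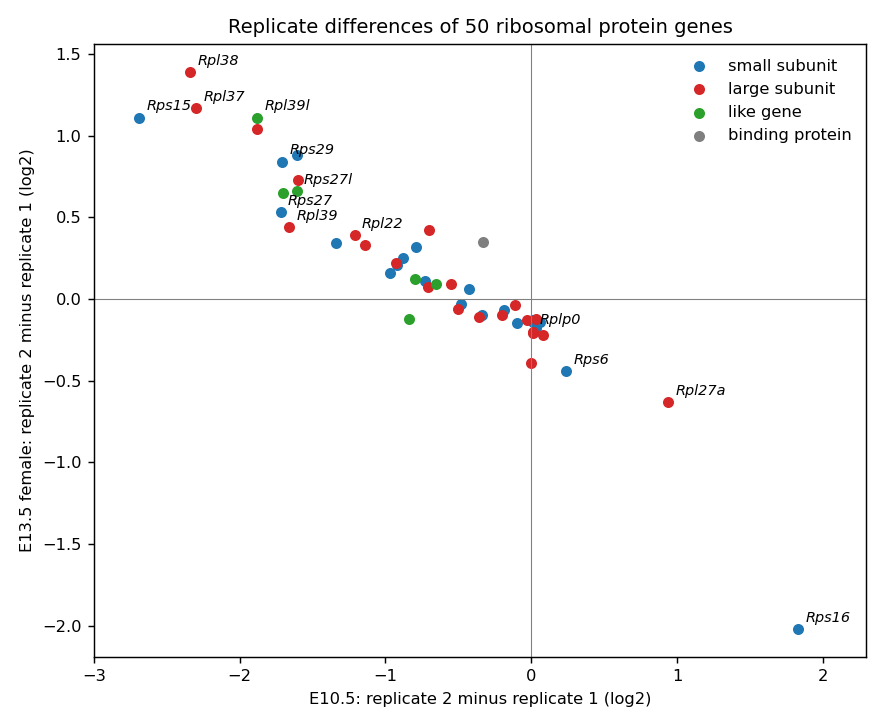
Replicate 2 minus replicate 1 (log2) for each of the 50 members, at E10.5 (horizontal axis) and in E13.5 females (vertical axis), coloured by class. The points run from Rpl38 and Rps15 at the upper left, low in E10.5 replicate 2 and in E13.5 female replicate 1, through Rplp0 near 0 to the dim Rps16 at the lower right (r = -0.95).

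The 3′ to 5′ controls for RNA quality differed between replicates, and Gapdh and Actb did not order the replicates alike. The Gapdh control signal at the 3′ end exceeded that at the 5′ end by 0.44 in E10.5 replicate 1 and by 1.38 in replicate 2. The same difference was 1.18 and 2.53 at E11.5, 1.23 and 3.09 in E13.5 females, and 1.57 and 3.16 in E13.5 males. At E12.5 it was 1.15 and 1.17 in females and 0.80 and 0.87 in males, and at E9.5 it was 1.20 and 0.21. From E10.5 onward the Gapdh difference was larger in replicate 2 of every group. It was thus larger on the array with the lower Rpl38 signal at E10.5 and E11.5, and smaller on that array in both sexes at E13.5. For Actb it was 2.70 and 2.97 at E10.5, 3.24 and 2.90 at E11.5, 3.13 and 3.09 in E13.5 females, and 3.29 and 2.94 in E13.5 males, larger on the array with the lower Rpl38 signal except at E11.5. The summed signal of blood markers was 11.72 and 11.32 on the log2 scale in E10.5 replicates 1 and 2, that of endothelial markers 11.11 and 10.71, and that of germ cell markers 15.39 and 15.22. The part of these measures in the low readings was not tested.

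For the whole series, 10 of 11 germ cell markers were measured, none was dim on every array, and their summed signal lay between 15.17 and 15.67 on all 14 arrays. Dazl, a germ cell RNA-binding protein of that list, read 5.71 and 3.70 at E9.5 and 8.96 or more on every later array. Eif2s3y, encoded on the Y chromosome, read 10.67 and above in males of E12.5 and E13.5, 1.61 and 2.53 in E12.5 females, and 5.93 and 2.58 in E13.5 females. Kdm5d, also on the Y chromosome, read 6.87 and above in these males, 3.04 and 1.75 in E12.5 females, and 1.44 and 1.76 in E13.5 females. E13.5 female replicate 1 was thus the highest female array for Eif2s3y and the lowest for Kdm5d. The sex check list had 5 markers, of which 4 were measured. Only Eif2s3y and Kdm5d passed between the sexes at E12.5 and at E13.5 (limma, adjusted p under 0.05), and Uty and Xist did not. The lowest male minus female change among the 4 was 0.02 at E12.5 and -0.12 at E13.5. Markers of other cells were not constant: the summed blood signal, led by embryonic globins, was 14.59 and 13.68 at E9.5, 11.72 and 11.32 at E10.5, and between 6.85 and 9.0 from E12.5 onward. Hba-a1 and Ptprc of the blood list and Nr2f2 and Sox9 of the gonadal somatic list were dim on every array. In bulk samples fewer cells of a type and less RNA per cell cannot be told apart, and the part of other cells in the changes below was not tested.

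Linear models (limma, adjusted p under 0.05 by Benjamini-Hochberg over all 18194 genes) found no member changed in 9 of the 11 comparisons. From E10.5 to E11.5 none of the 50 passed, and 0.0769% of all genes did. From E11.5 to E12.5 none passed in females (1.85% of all genes) or in males (1%), and from E12.5 to E13.5 none in females (1.91%) or in males (2.1%). Between males and females none passed at E12.5 (2.38%) or E13.5 (10.2%), and none changed its sex difference between these ages (0.011%). With each array centred on its median gene, Rpl7l1 was called higher in males at E13.5, and the members' median difference was 0.25 in place of 0.05. The median gene read 6.53 and 6.55 in E13.5 females and 6.32 and 6.37 in males, so this centring raised all genes in males relative to females. The share of all genes called under it is not given here, so the call of Rpl7l1 is not separated from that shift. At an unadjusted p under 0.05, between 0 and 4 members passed in each of these 9 comparisons. Between 1286 and 4055 of all 18194 genes did so.

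The sign of the members' median change against E10.5 depended on which E10.5 array was kept. Against E9.5 the median over the members was -0.21 with both E10.5 arrays, -0.47 without replicate 1 and 0.09 without replicate 2, and all genes had a median of -0.06. Without replicate 1 or 2 the E10.5 group is a single array, and its spread is assumed to equal that of the other groups. No member passed with both arrays (1.06% of all genes did), 23 fell without replicate 1 (7.77% of all genes did), and none passed without replicate 2 (0.28%). Age, strain, RNA kit, PCR cycles and study all differ between E9.5 and E10.5 and cannot be told apart. Against E11.5 the median was 0.22 with both arrays, 0.55 without E10.5 replicate 1 and -0.06 without replicate 2; no member passed with both arrays, and Rpl39l alone rose without replicate 1 (0.137% of all genes did).

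The comparisons of E13.5 with E10.5 share the E10.5 arrays. In females 2 members rose, Rpl3l and Rps6, where 17.8% of all genes passed and 11.4% rose. In males Rpl3l and Rpl12 rose, where 12.7% of all genes passed and 7.45% rose. The median change over the members was 0.25 in females, or -0.01 where each array was centred on its median gene, and 0.31 in males; over all genes it was 0.08 and 0.07. Without E10.5 replicate 1, 26 members rose in females (13.1% of all genes did) and 27 in males (10.1%), with medians of 0.58 and 0.68. Without E10.5 replicate 2, Rpl3l and Rps6 still rose in females (10.5% of all genes did), no member passed in males (6.83%), and the medians were -0.04 and 0.00.

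Rpl3l, a paralog of Rpl3 known from heart and skeletal muscle, was the member with the largest change, at a low signal. It read 3.76 and 3.34 at E9.5, 3.92 and 3.08 at E10.5, 3.93 and 4.51 at E11.5, 4.40 and 5.26 in E12.5 females, and 4.16 and 4.64 in E12.5 males. At E13.5 it read 5.84 and 5.72 in females and 4.66 and 5.47 in males. Both arrays of each sex at E13.5 lay above both at E10.5, but the E10.5 values are below the median of the table, where no detection call tells signal from background. The change was 2.28 ± 0.44 (SE, n = 2 arrays per group; limma, adjusted p = 0.0043) in females and was 1.80 (adjusted p = 0.0944) without E10.5 replicate 2 and E13.5 female replicate 1 together. In males it was 1.56 ± 0.44 (adjusted p = 0.0393), and the call was lost without E10.5 replicate 2 (1.15, adjusted p = 0.181) and without E13.5 male replicate 2 (1.16, adjusted p = 0.251). The difference between the sexes at E13.5, male minus female, was -0.71 (95% interval -1.68 to 0.25).

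Rps6, the small subunit protein phosphorylated downstream of mTOR, rose in females on only 1 of its 2 single-symbol probe sets. The brighter, used here, read 10.11 and 10.35 at E10.5, 11.21 and 10.77 in E13.5 females and 10.63 and 10.19 in E13.5 males. The female arrays thus lay above the rest, and the male arrays overlapped E10.5. In a limma fit of all probe sets, the dimmer (mean 4.76) changed by -0.065 in females (adjusted p = 0.959). In that fit the brighter had an adjusted p of 0.052. The change in females was 0.76 ± 0.22 (SE; limma, adjusted p = 0.0346) and was lost without E10.5 replicate 1 (0.64, adjusted p = 0.114) or E13.5 female replicate 1 (0.54, adjusted p = 0.226). With the brightest probe set listing Rps6 together with a pseudogene, mean 13.77, it was 0.07 (adjusted p = 0.748), and the 8 bright shared probe sets changed by between -0.25 and 0.18.

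Rpl12, a protein at the base of the P stalk, rose in males. It read 9.89 on both E10.5 arrays, 10.49 and 10.10 in E13.5 females, and 11.04 and 10.36 in E13.5 males; the male replicates differed by 0.68, almost as much as the groups. The change was 0.81 ± 0.23 (SE; limma, adjusted p = 0.0469), and 3 of the 4 arrays compared were each needed for the call. It was 0.47 (adjusted p = 0.312) without E13.5 male replicate 1, and 0.81 without E10.5 replicate 1 (adjusted p = 0.0862) or replicate 2 (adjusted p = 0.0993). A shared probe set of Rpl12 gave 0.29 (adjusted p = 0.327).

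Rpl39l, a paralog of Rpl39 that is known to replace it in ribosomes of male germ cells later in life, had the second widest span. It read 10.92 and 8.54 at E9.5, 12.04 and 10.16 at E10.5, 12.66 and 12.29 at E11.5, 12.63 and 12.75 in E12.5 females, and 12.85 and 12.75 in E12.5 males. At E13.5 it read 11.54 and 12.65 in females and 12.28 and 12.79 in males. All arrays from E11.5 to E12.5 lay above both E10.5 arrays, and those in turn overlapped E9.5. The change from E10.5 to E11.5 was 1.38 ± 0.51 (SE; limma, adjusted p = 0.592), or 0.43 without E10.5 replicate 2 and 2.31 without replicate 1. At E13.5 the male minus female difference was 0.44 (95% interval -0.69 to 1.57).

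Rpl39 itself, encoded on the X chromosome, read 12.89 and 12.83 at E9.5 and 12.89 and 11.23 at E10.5. It then read 12.78 and 12.21 at E11.5, 12.89 and 12.87 in E12.5 females, and 12.71 and 12.35 in E12.5 males. At E13.5 it read 12.58 and 13.02 in females and 12.29 and 12.77 in males. Apart from E10.5 replicate 2, its arrays covered less than a single log2 unit, and at E9.5 it was at its level of other ages when Rpl39l was lowest. Rps4x, the other measured member on the X chromosome, differed between E13.5 males and females by 0.00 (95% interval -0.27 to 0.26).

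**Figure D3:**
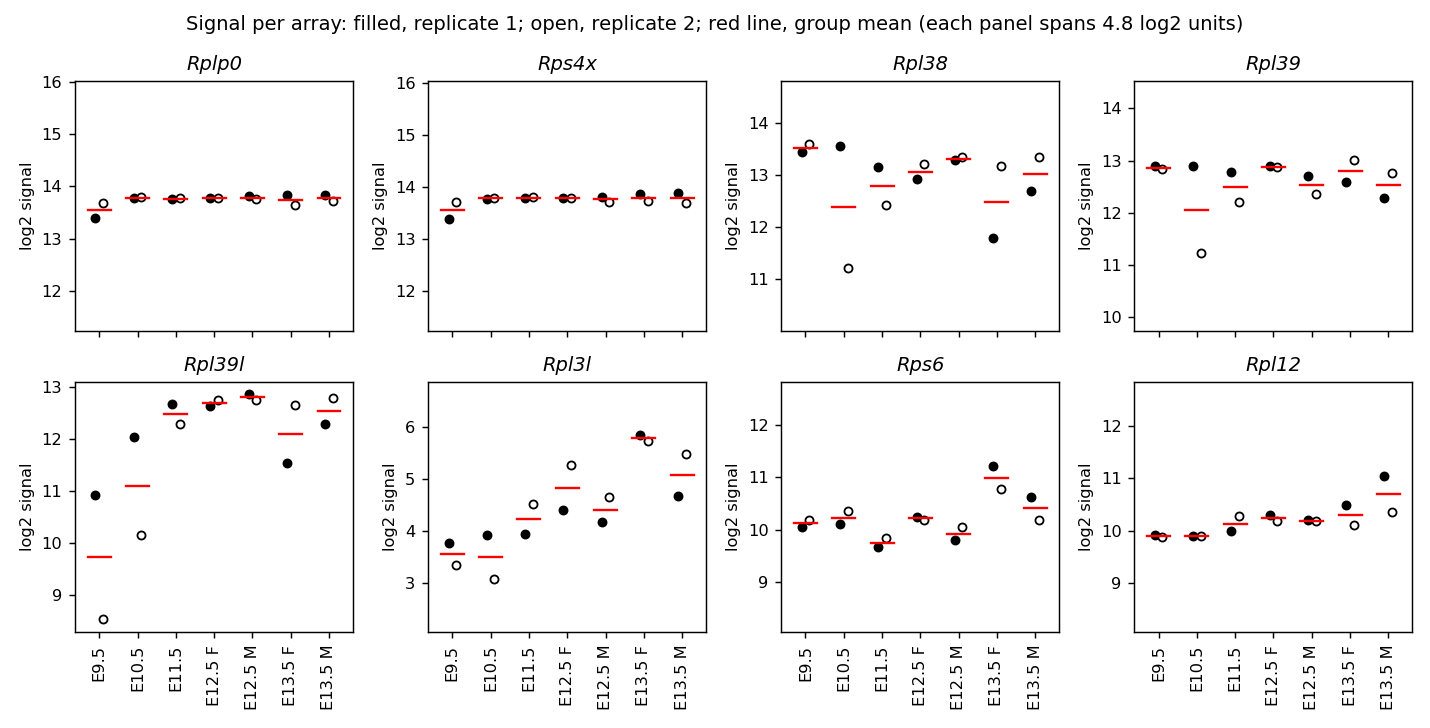
Log2 signal of 8 members on each array (filled points, replicate 1; open points, replicate 2; red lines, group means), with the same height of scale in every panel. Rplp0 and Rps4x are flat, Rpl38 and Rpl39 drop in E10.5 replicate 2, Rpl39l is lowest at E9.5 and E10.5, and Rpl3l, Rps6 and Rpl12 are highest at E13.5.

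Of the other paralogs, Rpl22l1 and Rps27l followed the replicate pattern of the canonical members, while group means of Rpl7l1 spanned 0.91 from E10.5 to E13.5. Rpl22l1, a paralog of Rpl22, read 13.05 and 11.35 at E10.5, and Rpl22 itself 13.66 and 12.45. Rps27l, a paralog of Rps27 induced by p53, read 13.23 and 11.62. Rpl7l1 read 9.86 and 9.98 in E13.5 females and 10.59 and 10.64 in E13.5 males without overlap, a difference of 0.70 ± 0.29 (SE; limma, adjusted p = 0.183). Rps4l ranged from 12.52 to 13.28 over all arrays. Rps19bp1 ranged from 9.25 to 10.31. The P stalk protein Rplp2 read 13.92 and 13.21 at E10.5 and between 13.77 and 13.94 on all other arrays.

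Fau, which encodes a ribosomal protein fused to a ubiquitin-like protein and falls outside the symbol rule, read 13.17 and 11.90 at E10.5, 12.57 and 13.13 in E13.5 females, and between 12.85 and 13.29 on the remaining arrays. It was thus low on the same arrays as Rpl38. Eef1a1, the elongation factor that delivers tRNAs, and Tpt1, another mRNA with a terminal pyrimidine run, did not share this. Eef1a1 read 13.76 and 13.81 and Tpt1 13.78 and 13.82 at E10.5. Over 30 translation factors the median replicate difference at E10.5 was 0.01, and none was below -1.

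Of 39 ribosome assembly genes measured, 10 fell and none rose from E10.5 to E13.5 in females (limma, adjusted p under 0.05), where 6.4% of all genes fell, and the median change was -0.42. In males none passed, where 12.7% of all genes did. At an unadjusted p under 0.05, 4 passed in males, as did 4548 of all 18194 genes, and the list's median was 0.04. At E13.5, 7 were higher in males than in females, where 4.17% of all genes were, and the median difference was 0.50. The count of 10 was the same without E10.5 replicate 1 and without replicate 2, but fell to 4 without E13.5 female replicate 1, to 5 without replicate 2, and to 0 in a fit of the compared arrays alone. The count of 7 fell to 2 and 1 without E13.5 female replicates 1 and 2, and to 0 and 1 without E13.5 male replicates 1 and 2.

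Tcof1, a nucleolar factor of ribosomal RNA synthesis, read 11.50 and 10.73 at E10.5, 9.51 and 9.85 in E13.5 females, and 10.83 and 11.01 in E13.5 males. The females thus lay below both other groups without overlap. It fell by 1.44 ± 0.26 (SE; limma, adjusted p = 0.00343) in females and was 1.24 higher in males than in females (adjusted p = 0.0132). Rrp9, a component of the U3 snoRNP, fell by 1.71 ± 0.35 in females (adjusted p = 0.00696). Bysl, a factor of small subunit maturation, fell by 1.37 ± 0.33 (adjusted p = 0.0142). Sbds, which helps to release the factor Eif6 from the large subunit, read 9.35 and 8.89 in E13.5 females against 10.46 and 9.76 in males, and was 0.99 higher in males (adjusted p = 0.0244). Nop2, a methyltransferase of ribosomal RNA, was 0.88 ± 0.19 higher in males (adjusted p = 0.0148). None of the 39 passed for a change of the sex difference between E12.5 and E13.5 (0.011% of all genes did). At an unadjusted p under 0.05, 4 did so, as did 1350 of all 18194 genes.

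Among 76 mitochondrial ribosomal protein genes, which serve the separate ribosome of mitochondria, 4 rose and 9 fell in females from E10.5 to E13.5, where 11.4% of all genes rose and 6.4% fell, and 4 rose in males, where 7.45% of all genes did. At E13.5, 7 were higher in males, where 4.17% of all genes were: Mrpl19 read 9.79 and 9.69 in females and 10.98 and 10.83 in males, a difference of 1.17 ± 0.18 (SE; limma, adjusted p = 0.00253). Mrps34 was 1.26 ± 0.30 higher (adjusted p = 0.0238) and Mrpl50 1.12 ± 0.21 (adjusted p = 0.00671). Leaving out E13.5 male replicate 1 or 2 gave counts of 2 and 3 in place of 7, and leaving out E13.5 female replicate 1 or 2 gave 3 and 4. In E10.5 replicate 2 the mitochondrial list was low like the cytosolic proteins, with a median of -0.52 against replicate 1 and 32.89% below -1. The count of 9 that fell in females was also 9 without that array, 4 without either E13.5 female array, and 0 in a fit of the compared arrays alone.

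**Figure D4:**
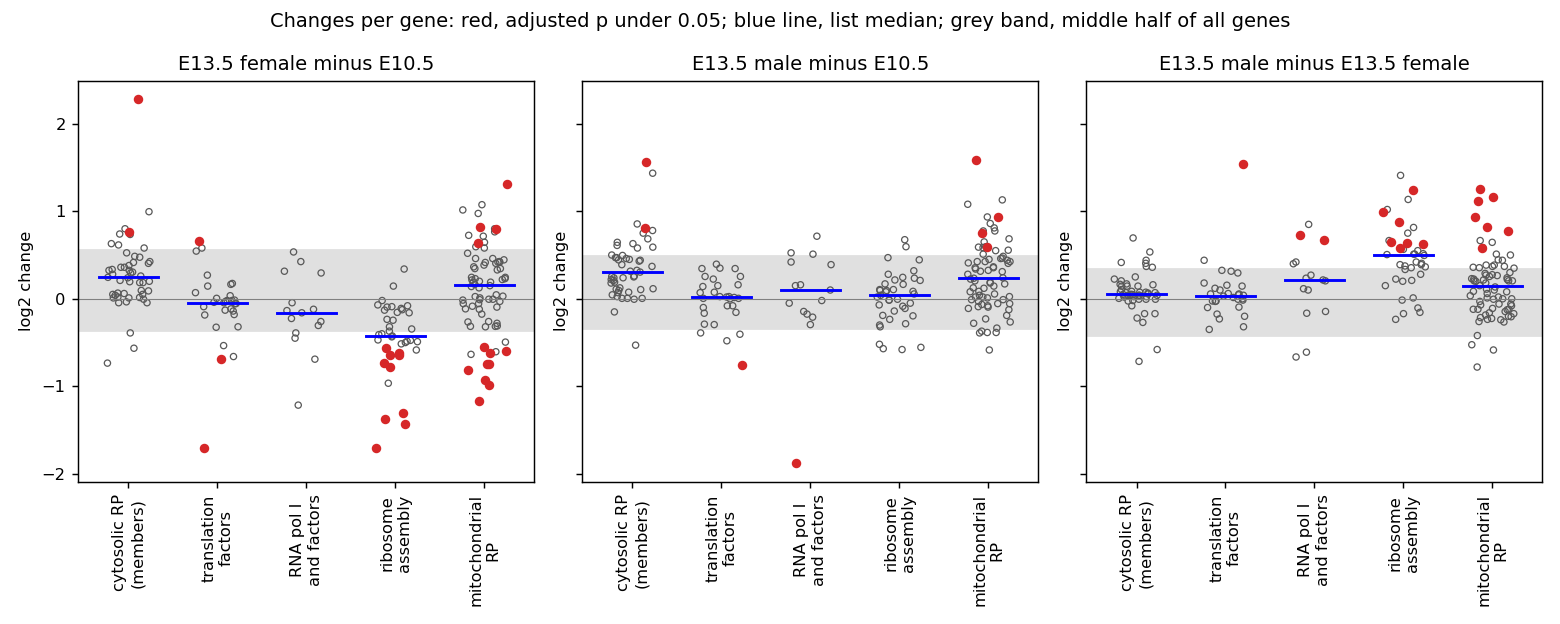
Log2 change of each gene in 5 lists for 3 comparisons (red, adjusted p under 0.05; blue lines, list medians; grey bands, the interquartile range of all genes; RP, ribosomal proteins). Ribosome assembly genes lie below 0 in E13.5 females against E10.5 (median -0.42) and above 0 in E13.5 males against females (0.50), while the median of the cytosolic ribosomal proteins between the sexes is 0.05, or 0.25 with each array centred on its median gene.

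Of the 15 genes of RNA polymerase I and its factors, which transcribe ribosomal RNA, Polr1c (0.73 ± 0.17, limma adjusted p = 0.0214) and Taf1c (0.67 ± 0.17, adjusted p = 0.0288) were higher in males at E13.5, and Rrn3 fell by 1.88 ± 0.48 in males from E10.5 (adjusted p = 0.0262). Over all genes, 11.4% rose and 6.4% fell in females from E10.5. In males 12.7% of all genes passed and 7.45% rose, and 4.17% were higher in males than in females at E13.5. Among 30 translation factors, 1 rose and 2 fell in females from E10.5. Eif1a and Eif4h fell by 1.70 and 0.69, and Eif1ax rose by 0.67. In males 1 translation factor fell, Eif2s3x by 0.76. Among 17 regulators of ribosomal protein transcription and translation, 1 rose and 1 fell from E10.5 in each sex. Tsc1, a brake on mTOR, rose in both sexes. It read 6.94 and 6.53 at E10.5, 8.86 and 9.0 in E13.5 females, and 9.31 and 9.34 in E13.5 males, a rise of 2.20 ± 0.28 (adjusted p = 0.000391) and 2.59 ± 0.28 (adjusted p = 0.000166). Max, the partner of Myc proteins, fell by 1.03 ± 0.22 in females (adjusted p = 0.00702), and Larp1 by 1.04 ± 0.27 in males (adjusted p = 0.0281). Yy1 was 0.90 ± 0.19 higher in males than in females at E13.5 (adjusted p = 0.0134). Mycn did not pass in any comparison and read 11.82 and 10.62 at E10.5, and Myc changed by -0.88 ± 0.32 in females (adjusted p = 0.0868).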

How the data were processed

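The authors deposited 1 table of log2 probe set signals, which per the series' design text they normalized over all 14 arrays together, with the E9.5 arrays of an earlier study. The software and the summarization method were not given in the sources used here, and no detection calls were used. The table held 45101 probe sets; 34958 had 1 gene symbol and gave 18194 genes, each read from its brightest probe set (highest 14-array mean).

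For changes between groups, limma 3.58.1 (R 4.3.3) was used (group means, moderated variances with an intensity trend, two-sided tests), on the 12 arrays other than E9.5 (6 residual degrees of freedom) or, for E10.5 against E9.5, on all 14 (7). P-values were adjusted over all genes within each of 11 comparisons, and intervals are at 95%. The fit was tested on simulated data. With 2 arrays per group, their number limits the precision.

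The members and all gene lists were chosen with earlier results of these data known. Named members were those that passed, the 5 with the widest and the 5 with the narrowest span of group means, a set of paralogs, P stalk and X-linked members, and the members with the widest replicate differences, which were picked after their values were seen. Outside the members, up to 3 passing genes a list and direction were named. Alternatives covered the choice of probe set, scaling, filter, variance model, the replicate block, shared probe sets and left-out arrays. Same-numbered replicates did not deviate together in all groups (r from -0.54 to 0.69), so the numbers were not taken as pairs.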

Additional observations from a re-analysis of the deposited data

How the results depend on the processing

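The count of members that passed depended on the setting in the comparisons that involve E10.5. Shares of all genes that passed are given above only for the main fit and some fits without an E10.5 array. Under the other settings, a change in the members' count is not separated here from a change over all genes. For E13.5 females against E10.5 it was 2, then 4 with a gene's probe sets averaged, 1 under quantile normalization, centring on the array median, centring on the median gene, the filter on genes above the median gene, no intensity trend, the compared arrays alone or shared probe sets included, and 0 without E10.5 replicate 2 and E13.5 female replicate 1 together. For E13.5 males it was 2, then 1 under quantile normalization, centring on the median gene, the filter or shared probe sets, and 0 with no intensity trend, the compared arrays alone or without that pair of arrays. Centring on the median gene, which ranged from 6.18 (E10.5 replicate 2) to 6.58 over the arrays, gave 1 member (Rpl7l1) between the sexes at E13.5, and member medians of -0.035 for E10.5 against E9.5, 0.25 between the sexes at E13.5 and -0.013 for E13.5 females against E10.5. Without E10.5 replicate 2 and E13.5 female replicate 1 the medians were 0.093 against E9.5, -0.06 for E11.5, -0.055 for E13.5 females and 0.00 for E13.5 males against E10.5. Leaving out each array in turn gave counts of 0 to 23 and medians of -0.47 to 0.093 for E10.5 against E9.5, 0 to 1 and -0.06 to 0.55 for E11.5 against E10.5, 1 to 26 and -0.045 to 0.58 for E13.5 females, and 0 to 27 and 0.00 to 0.68 for E13.5 males against E10.5. The male minus female difference of Rps6 at E13.5 was -0.58 and turned to 0.01 with a shared probe set. Ribosome assembly genes higher in E13.5 males numbered 7, and between 2 and 14 under the other settings with all arrays kept; those lower in E13.5 females than at E10.5 numbered 10, and between 0 (compared arrays alone) and 19. With the replicate number as a block, the counts were 2 and 2 in both comparisons of E13.5 with E10.5 and 0 in the other 9, and no member's call changed. The settings for shared probe sets, centring on the median gene, the pair of arrays and the assembly and mitochondrial lists were chosen after seeing the data.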

Other observations

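Other highly expressed genes shared the low readings of E10.5 replicate 2. Of the 459 genes above 12 that are no ribosomal protein members, 35 were over 1 lower in that array than in replicate 1, and 17 of these had symbols starting with Cox, Nduf, Uqcr or Atp5, which mark subunits and assembly factors of the respiratory chain and ATP synthase; this family was picked after seeing the values. Cox6c had the widest gap of the 35 (-2.19), followed by Ndufa13 (-2.16) and Cox6b1 (-2.14). The list also held Snrpg and Snrpe, small proteins of the spliceosome core, Sec61b of the translocon, and Fau. Of all 94 measured genes with these 4 symbol starts, 55 were over 1 lower, with a median of -1.29, and the median of replicate 2 minus replicate 1 in E13.5 females was 0.50, the opposite sign. Of the 425 other genes above 12, 18 were over 1 lower, with a median of -0.05. These are values of single arrays, with no test.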
